A study of Mus musculus with 36 samples.

Results

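The genes described here are 9 of the 24061 gene names counted in the series: Wisp1, Wisp2, Sfrp1, Sfrp2, Frzb, Dkk2, Dkk3, Wif1 and Axin2. Of these, 8 encode secreted proteins and Axin2 encodes an intracellular one. They were chosen by their measured levels in irradiated against sham libraries, and the change of sign of Wisp2 in fibroblast libraries was part of that choice. The irradiated and sham levels of the 9 genes are therefore given as a description with standard errors and without a test.

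RNA was sequenced from fibroblasts, endothelial cells and myocytes of wild-type C57BL/6J mouse hearts. Mice received either a sham procedure or 12 Gy in a single fraction from a small animal microirradiator, and cells were collected 6 hours, 7 days or 28 days later. Each of the 18 groups holds 2 libraries, so that each cell type has 6 sham and 6 irradiated libraries. The labels give neither the age and sex of the mice nor the way the cells were separated. They do not say whether the 2 libraries of a group came from separate animals, so the spread that enters the p-values is that between these libraries and may be technical.

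Wnt proteins are secreted signals that bind Frizzled receptors together with the co-receptors LRP5 or LRP6 and, in the canonical branch, stabilise β-catenin. Secreted antagonists set how much ligand reaches the receptors: the Sfrp family, which includes Frzb, and Wif1 bind Wnt proteins, while Dkk proteins such as Dkk2 bind the co-receptors. Wisp1 and Wisp2 are matricellular proteins of the CCN family, and Axin2 is a scaffold of the β-catenin destruction complex whose transcription is a common readout of canonical signalling. In the heart, fibroblasts are a known source of several of these secreted proteins, and the pathway is known for its part in development and scarring.

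The 9 genes lie on 7 mouse chromosomes in the GRCm38.p6 RefSeq annotation. Wisp2 (now named Ccn5) is at 163820752 to 163833146 and Frzb at 80411970 to 80447396 of chromosome 2. Sfrp2 is at 83765750 to 83774314 and Dkk2 at 132085266 to 132180304 of chromosome 3. Dkk3 spans 112116019 to 112159482 of chromosome 7, Sfrp1 23411383 to 23449632 of chromosome 8 and Wif1 121034004 to 121100642 of chromosome 10. Axin2 is at 108917828 to 108950783 of chromosome 11, and Wisp1 (now named Ccn4) at 66891369 to 66923201 of chromosome 15. Each has 1 transcript in the files, and no other gene of that annotation overlaps any of them.

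Promoter sequences from RefSeq, build GRCm38.p6, were at hand for 5 of the 9 genes (Sfrp2, Frzb, Dkk2, Wif1 and Axin2). The 250 bases before the annotated start are shown 5′ to 3′ on the gene's strand for Sfrp2, Frzb and Axin2, which were lower together in irradiated fibroblast libraries at 6 hours, and for Dkk2, whose sham level was highest in endothelial libraries. For Sfrp2, Dkk2 and Axin2 the start used by that table lies inside the outer bounds of the gene given above. Capitals mark the letters CTTTGA on either strand (TCAAAG on the strand printed), the core of the site bound by the TCF/LEF factors that carry the canonical signal.
Sfrp2 (chr3:83766071-83766320, plus strand): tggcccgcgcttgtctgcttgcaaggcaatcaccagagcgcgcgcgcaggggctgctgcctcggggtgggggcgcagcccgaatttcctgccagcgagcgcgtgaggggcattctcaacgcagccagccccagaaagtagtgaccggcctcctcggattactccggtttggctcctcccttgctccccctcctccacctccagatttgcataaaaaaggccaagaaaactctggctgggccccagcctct
Frzb (chr2:80447397-80447646, minus strand): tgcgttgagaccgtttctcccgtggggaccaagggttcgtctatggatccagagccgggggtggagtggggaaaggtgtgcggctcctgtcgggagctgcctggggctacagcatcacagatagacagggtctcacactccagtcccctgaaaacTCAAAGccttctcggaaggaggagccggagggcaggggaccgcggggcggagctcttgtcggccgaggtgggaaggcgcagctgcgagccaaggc
Axin2 (chr11:108920099-108920348, plus strand): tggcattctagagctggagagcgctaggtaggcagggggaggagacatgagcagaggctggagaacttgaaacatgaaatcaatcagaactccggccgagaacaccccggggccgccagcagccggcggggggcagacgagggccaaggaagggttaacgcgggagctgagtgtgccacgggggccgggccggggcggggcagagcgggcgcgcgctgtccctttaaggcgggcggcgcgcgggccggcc
Dkk2 (chr3:132085042-132085291, plus strand): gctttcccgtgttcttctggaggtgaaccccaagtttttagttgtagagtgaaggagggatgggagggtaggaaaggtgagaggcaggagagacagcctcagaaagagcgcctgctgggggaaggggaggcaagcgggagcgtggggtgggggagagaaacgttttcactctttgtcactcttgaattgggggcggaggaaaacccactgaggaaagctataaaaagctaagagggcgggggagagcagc
The motif was present in 1 of the 5 promoters, that of Frzb, where it begins 95 bases before the start. It was present in 4544 of 32851 mouse promoters of the same length, or 13.8%. A match is a description of the letters, and the absence of a match in this window says nothing about binding elsewhere.

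The libraries matched their labels in both respects that could be checked. The level of a gene is given in counts scaled to the library total (CPM). Cdkn1a, a p53 target induced by DNA damage, was higher in both irradiated libraries than in both sham libraries in all 9 comparisons; in fibroblast libraries it lay between 153.7 and 231 CPM in sham and between 471.3 and 1200 CPM in irradiated libraries. Pdgfra, which marks fibroblasts, was at 620.3 to 1140 CPM in fibroblast libraries and at no more than 114.7 CPM in the others. Cdh5, which marks endothelium, was at 2024 to 2849 CPM in endothelial and 158.1 to 601.9 CPM in myocyte libraries. In fibroblast libraries Cdh5 was at 46.2 CPM in the second irradiated library of 6 hours and at no more than 7.41 CPM in the other 11. A sum of 10 endothelial markers, Cdh5 among them, was 406.2 to 576.7 CPM in the irradiated fibroblast libraries of 6 hours. In the sham fibroblast libraries of 6 hours it was 558.4 to 619.6 CPM. Myh6, the cardiomyocyte myosin heavy chain, was at 31162 to 47709 CPM in myocyte libraries and at no more than 105.9 CPM in the others. Fibroblast libraries held 25.63 to 31.94 M reads, those of endothelial cells 25.91 to 45.49 M and those of myocytes 10.18 to 19.42 M. The first irradiated myocyte library of 7 days stood apart from the other myocyte libraries, with the smallest scaling factor of the 12 (0.838), and values that rest on it are marked as such.

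Which cell type carries these transcripts was asked in the sham libraries, whose differences between cell types were not the contrast that chose the genes. The genes were chosen with earlier results of these data known, so these tests may not be independent of the choice. In sham hearts 7 of the 9 genes were highest in fibroblast libraries, Dkk2 was highest in endothelial libraries and Wisp1 was highest in myocyte libraries. Levels are compared between genes per kilobase of transcript, scaled to the reads of all transcripts of the library (RPKM); the CPM used elsewhere are scaled to the reads of 1 transcript a gene name, a smaller total, so that RPKM is not CPM divided by length. On the RPKM scale Dkk3, a divergent member of the Dickkopf family, had the highest level in fibroblasts with 79.7 ± 12.4 RPKM (SD, n = 6). Sfrp1 followed with 49.0 ± 6.40 RPKM (SD, n = 6).

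The next 4 genes of the fibroblast order lay close together. Frzb was at 32.9 ± 2.77 RPKM, Wisp2 at 28.6 ± 6.78 RPKM, Sfrp2 at 28.3 ± 4.39 RPKM and Wif1 at 28.0 ± 5.29 RPKM (SD, n = 6 each), and the ranges of these 4 genes overlapped. Axin2 at 1.64 ± 0.0813 RPKM, Wisp1 at 0.246 ± 0.0767 RPKM and Dkk2 at 0.0740 ± 0.0228 RPKM (SD, n = 6 each) were far lower and did not overlap one another. In endothelial libraries Dkk3 also led, with 6.43 ± 1.27 RPKM (SD, n = 6), and Dkk2 ranked next after Sfrp1 (2.03 ± 0.406 against 3.61 ± 1.18 RPKM, SD, n = 6 each). In myocyte libraries Dkk3 was again highest at 19.9 ± 7.78 RPKM, followed by Wif1 at 4.33 ± 0.531 RPKM (SD, n = 6 each).

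**Figure D1:**
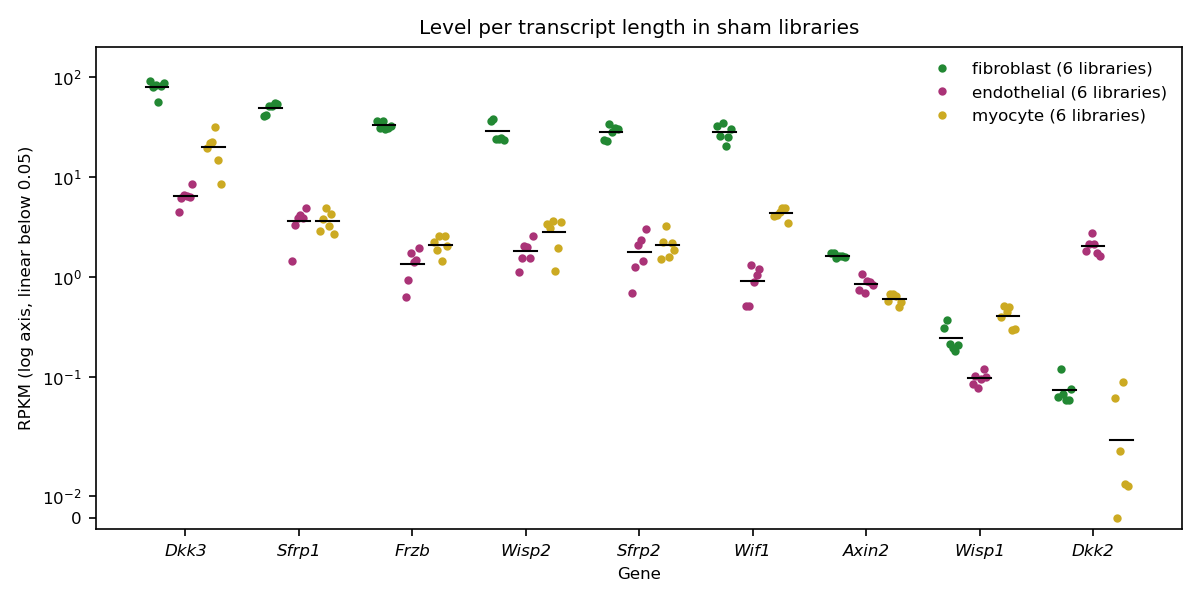
Level of each gene per transcript length (RPKM, log axis that is linear below 0.05) in the 6 sham libraries of each cell type; points are libraries and bars are means. Dkk2 is highest in endothelial libraries (mean 2.03 RPKM) and Wisp1 in myocyte libraries (mean 0.407 RPKM), while the other 7 genes are highest in fibroblast libraries.

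Between sham fibroblast and sham endothelial libraries all 9 genes differed in edgeR's quasi-likelihood test with Benjamini-Hochberg adjustment over 15927 genes, 8 of them higher and 1 lower in fibroblasts. The same test called 39.0% of all genes higher and 40.1% lower, so most genes differ between these cell types. The Wnt-binding antagonists had log2 differences of 5.05 ± 0.15 (SE) for Wif1, or 33.0-fold (adjusted p = 4.38e-15), and 4.71 ± 0.12 for Frzb, or 26.2-fold (adjusted p = 5.17e-16). Sfrp2 was 17.0-fold and Sfrp1 14.3-fold higher in fibroblasts, Wisp2 16.1-fold and Dkk3 12.8-fold.

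The smallest differences between fibroblast and endothelial libraries were those of Wisp1 (log2 difference 1.35 ± 0.14) and Axin2 (0.98 ± 0.09, or 1.97-fold, adjusted p = 1.60e-08). Dkk2 ran the other way and was 26.4-fold lower in fibroblasts (log2 difference −4.72 ± 0.18, adjusted p = 1.37e-13). Its 6 sham endothelial libraries lay between 9.56 and 15.97 CPM and its 6 sham fibroblast libraries between 0.349 and 0.695 CPM, which correspond to 9 to 20 reads a library.

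Beside these ratios stand those of the marker genes. The summed level of the 10 fibroblast markers was 17.0 times higher in sham fibroblast than in sham endothelial libraries and 13.2 times higher than in sham myocyte libraries. The same sum ranged from 2410 to 6320 CPM over the endothelial and from 4355 to 7778 CPM over the myocyte libraries, against 63615 to 80832 CPM in fibroblast libraries. The part of fibroblast RNA in the endothelial and myocyte levels of these genes was not tested. For Dkk2 the summed level of the 10 endothelial markers in fibroblast libraries was 406.2 to 619.6 CPM, and it was 23.5 times higher in sham endothelial than in sham fibroblast libraries.

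Against sham myocyte libraries, 7 genes were higher in sham fibroblasts, Wisp1 was lower and Dkk2 was not called. Here the test called 43.6% of all genes higher and 40.9% lower. The log2 differences of the 7 higher genes ran from 1.03 ± 0.10 for Axin2 to 3.57 ± 0.12 for Frzb, with Wisp2 at 2.96 ± 0.16. Wisp1 was 2.21-fold lower in fibroblasts than in myocytes (log2 difference −1.14 ± 0.14, adjusted p = 5.59e-07), at 1.44 to 2.95 CPM against 2.55 to 4.40 CPM over the libraries. The ranges overlapped, and the 2 sham fibroblast libraries of 6 hours, at 2.48 and 2.95 CPM, were the highest of the 6. Dkk2 had 0 to 8 reads in the sham myocyte libraries, where 3 reads amount to 0.155 to 0.295 CPM, and its difference from fibroblasts was 0.80 ± 0.49 (adjusted p = 0.137). Without the first sham myocyte library of 6 hours this became 2.70 (adjusted p = 0.00693), and with plain library totals, which moved the median of all genes from 0.05 to 0.33, it became 1.08 (adjusted p = 0.0435).

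Between the sham myocyte and sham endothelial libraries 7 genes were higher in myocytes, Dkk2 was lower and Axin2 was not called, where 38.8% of all genes were called higher and 43.4% lower. The differences were largest for Wif1 (2.76 ± 0.17) and Wisp1 (2.50 ± 0.15) among the higher genes. Axin2 differed by −0.06 ± 0.11 (adjusted p = 0.633). The calls of Sfrp1 (0.49 ± 0.16, adjusted p = 0.00955) and Sfrp2 (0.72 ± 0.20, adjusted p = 0.00332) depended on the scaling of the myocyte libraries. With plain library totals the median of all genes moved from −0.09 to −0.40 and the differences became 0.172 (adjusted p = 0.343) for Sfrp1, 0.411 (adjusted p = 0.0773) for Sfrp2 and −0.373 (adjusted p = 0.00599) for Axin2. The value for Sfrp1 without the first sham myocyte library of 28 days was 0.356 (adjusted p = 0.0575).

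After irradiation the fibroblast levels of several of these genes were lower at 6 hours and higher at 28 days, and at 6 hours Wisp2 was furthest from sham. Wisp2, a CCN protein that lacks the C-terminal domain of its relatives, stood at 102.7 and 107.5 CPM in the sham libraries of 6 hours and at 47.25 and 49.61 CPM in the irradiated ones. At 7 days the sham libraries were at 68.56 and 68.12 CPM and the irradiated ones at 99.69 and 107.7 CPM. At 28 days they were at 70.55 and 67.24 CPM against 95.76 and 96.4 CPM. The groups did not overlap at any of the 3 times: both irradiated libraries were below both sham libraries at 6 hours and above them at 7 and 28 days. Here and below, groups of 2 libraries can often separate by chance, and the share of all genes that do so was not counted.

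In order of time, the fitted log2 fold changes of Wisp2 were −1.12, 0.60 and 0.46 (SE 0.06 each), or folds of 0.459, 1.52 and 1.38. Its sham level also differed between times, with 105.1 ± 3.43 CPM at 6 hours against 68.3 ± 0.314 CPM at 7 days and 68.9 ± 2.35 CPM at 28 days (SD, n = 2 each). The irradiated level was 48.4 ± 1.67 CPM at 6 hours and 103.7 ± 5.64 CPM at 7 days, close to the sham level of 6 hours. Over all alternatives the log2 fold change of Wisp2 stayed between −1.153 and −1.092 at 6 hours, between 0.545 and 0.655 at 7 days and between 0.412 and 0.503 at 28 days.

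**Figure D2:**
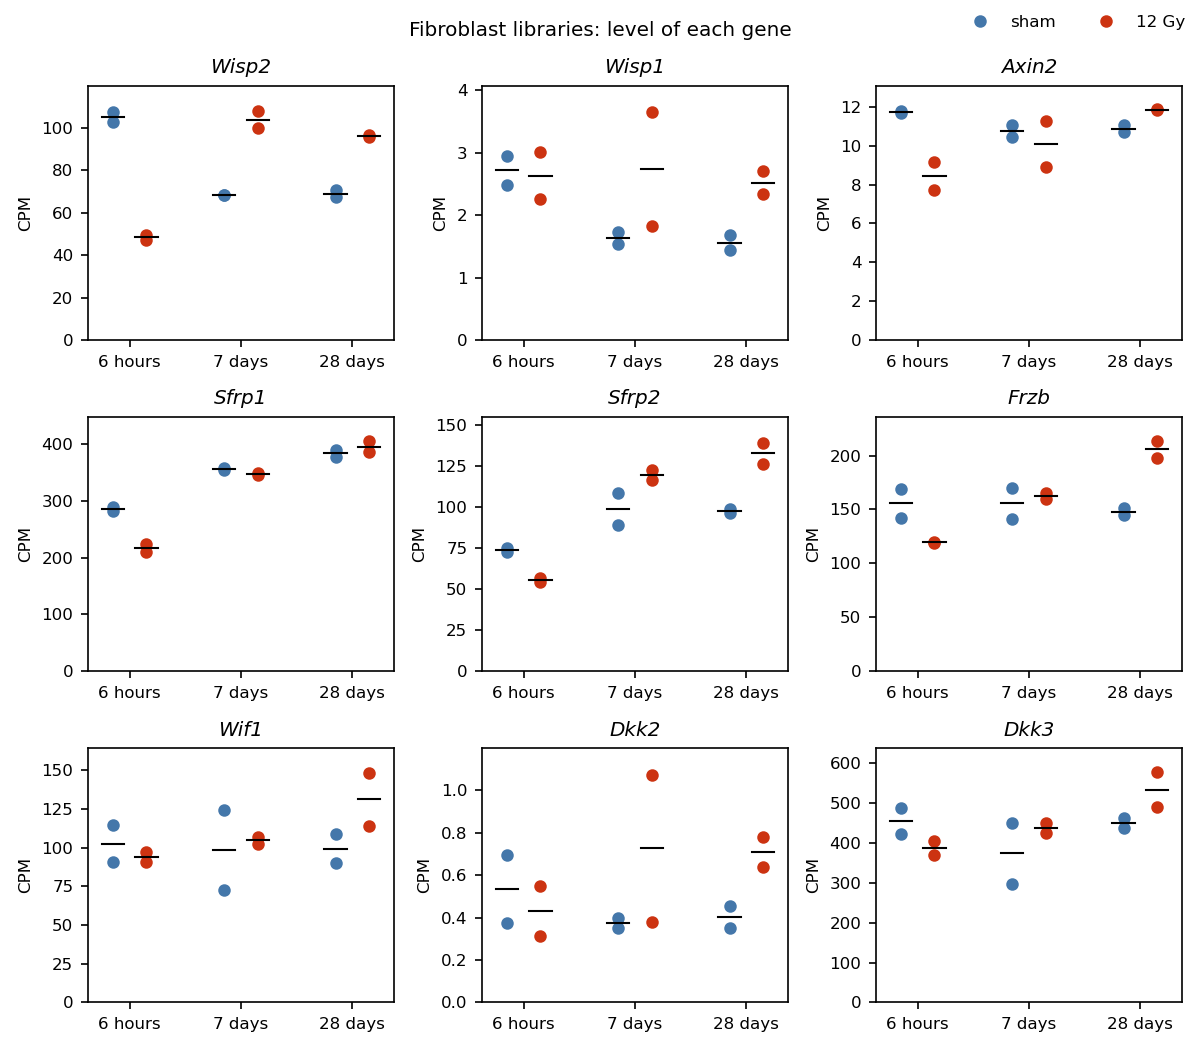
Level of each of the 9 genes in the 12 fibroblast libraries (CPM, axes from 0) by time after treatment; points are libraries, blue for sham and red for 12 Gy, and bars are means of 2 libraries. Wisp2 in irradiated libraries lies below sham at 6 hours (47.25 and 49.61 CPM) and above it at 7 days (99.69 and 107.7 CPM).

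Among the secreted Wnt binders, Sfrp1 stood apart from sham at 6 hours and lay close to it later. It was at 281.4 and 289.1 CPM in sham and at 223.1 and 209.2 CPM in irradiated fibroblast libraries at 6 hours, without overlap (log2 fold change −0.40 ± 0.06). At 7 days the values were 356.6 and 353.2 CPM against 348.3 and 344.9 CPM (−0.04 ± 0.06), and at 28 days 389.6 and 377.3 CPM against 384.6 and 403.9 CPM (0.02 ± 0.06). The 28-day groups overlapped, and those of 7 days were apart by a narrow margin.

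Sfrp2, which differed in sign between early and late times like Wisp2, was at 74.92 and 72.6 CPM in sham and 54.52 and 56.84 CPM in irradiated fibroblast libraries at 6 hours. At 7 days its libraries were at 109 and 89.51 CPM against 116.9 and 122.6 CPM, and at 28 days at 98.96 and 96.46 CPM against 126.5 and 139.3 CPM. None of these groups overlapped, and the log2 fold changes were −0.41 ± 0.09, 0.27 ± 0.09 and 0.42 ± 0.09 in order of time. The 7-day value rests on the lower sham library: it was 0.134 without that library and 0.418 without the higher one.

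Frzb, the third Sfrp family member, was at 168.8 and 142.4 CPM in sham and 119.1 and 120.2 CPM in irradiated libraries at 6 hours (−0.39 ± 0.10). At 7 days it overlapped, with 170.1 and 141.3 CPM against 164.9 and 160 CPM (0.06 ± 0.10). At 28 days both irradiated libraries, at 197.7 and 213.5 CPM, were above the sham libraries at 144.5 and 151.4 CPM (0.45 ± 0.10). Leaving out the higher sham library of 6 hours gave −0.242, and leaving out the lower gave −0.518.

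Wif1, which binds Wnt proteins through its own domain type, varied more between replicates than the Sfrp genes. Its sham fibroblast libraries at 7 days were at 124.1 and 72.59 CPM, a spread that held both irradiated libraries at 107.1 and 102.1 CPM. The log2 fold changes were −0.13 ± 0.19, 0.09 ± 0.19 and 0.38 ± 0.19, and only the 28-day groups did not overlap (89.83 and 108.5 against 113.8 and 148.3 CPM).

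Of the Dickkopf genes, Dkk3 had fibroblast log2 fold changes of −0.23, 0.22 and 0.22 (SE 0.15 each) in order of time. Single libraries moved each of them: leaving out the higher sham library gave −0.112 at 6 hours, leaving out the lower sham library gave −0.044 at 7 days (0.554 when the higher was left out), and leaving out the higher irradiated library gave 0.093 at 28 days. Its 6-hour libraries were at 486.6 and 422.6 CPM in sham and 405.9 and 370.7 CPM in irradiated samples, and its 28-day libraries at 438.8 and 462.6 CPM against 490 and 577.1 CPM. The second sham library of 7 days, at 297.4 CPM, was the lowest of the 12. Dkk2, the LRP5/LRP6 ligand, stayed between 0.313 and 1.07 CPM in all fibroblast libraries, and its log2 fold changes of −0.33, 0.95 and 0.78 carried standard errors of 0.52 to 0.53. The 6-hour value ran from −0.758 to 0.165 and the 7-day value from 0.020 to 1.51 with each library left out.

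Wisp1, a CCN gene named for its induction by Wnt1, was also low in fibroblasts, at 1.44 to 3.66 CPM over the 12 libraries. It overlapped at 6 hours (−0.06 ± 0.28) and was higher in the irradiated libraries at 7 days (0.75 ± 0.30) and 28 days (0.66 ± 0.30). At 7 days the irradiated libraries were at 1.83 and 3.66 CPM against 1.73 and 1.54 CPM in sham, so that the distance rests largely on the second irradiated library. Without it the 7-day value was 0.164.

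Axin2, the intracellular feedback gene, was at 11.69 and 11.75 CPM in sham and at 9.14 and 7.7 CPM in irradiated fibroblast libraries at 6 hours (−0.48 ± 0.12). At 7 days the groups overlapped (−0.10 ± 0.12). At 28 days they were apart by a narrow margin, with 11.04 and 10.7 CPM against 11.88 and 11.81 CPM (0.10 ± 0.12).

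At an adjusted p under 0.05, the fit would call 5 of the 9 genes lower and 0 higher at 6 hours, where it called 12.3% of 14998 genes lower and 12.3% higher. It would call 1 higher at 7 days (1.51% of all genes higher, 0.327% lower) and 3 higher at 28 days (2.48% higher, 0.813% lower). Nothing is read from these member counts, since the same contrasts chose the genes. All 9 genes passed the filter on low counts in fibroblast and endothelial libraries, and 8 of 9 in myocyte libraries, where Dkk2 did not. The medians of the 9 log2 fold changes were −0.39, 0.22 and 0.42 in order of time, where those of all genes tested were between −0.0049 and −0.0011. Nothing is read from these medians either, since the same contrasts chose the genes.

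Markers moved with treatment in the same fibroblast libraries. The sum of the 10 fibroblast markers was lower in irradiated libraries at every time, at 63615 to 65325 against 71243 to 75605 CPM at 6 hours, 70641 to 71711 against 76129 to 79191 CPM at 7 days and 74099 to 74920 against 78556 to 80832 CPM at 28 days. The sum of the 7 mesothelial markers in the files was higher, at 2577 to 2948 against 2198 to 2524 CPM, 2036 to 2156 against 1079 to 1680 CPM and 1941 to 1942 against 1509 to 1666 CPM in the same order. The 8 smooth muscle and pericyte markers summed to 861.9 to 943.6 against 1234 to 1287 CPM at 6 hours, 988.1 to 1033 against 912 to 937.2 CPM at 7 days and 1228 to 1372 against 1224 to 1260 CPM at 28 days, where the groups overlapped. Myh11, the smooth muscle myosin heavy chain, is part of that sum. It was at 221.9 and 158.6 CPM in irradiated against 282.6 and 290.5 CPM in sham libraries at 6 hours. At 7 days Myh11 was at 217.4 and 222.4 against 178.7 and 198.4 CPM, and at 28 days at 301.9 and 320.8 against 284.6 and 273.5 CPM. Pdgfra, of the fibroblast list, was lower in irradiated libraries at every time, at 658.9 and 620.3 against 1017 and 1061 CPM at 6 hours. The mesothelial marker Msln was higher in irradiated libraries at every time, at 728.3 and 830.9 against 538.6 and 563.7 CPM at 6 hours. It was at no less than 266.5 CPM in any fibroblast library. The part of these markers' cells in the levels of the 9 genes was not tested, and in such bulk samples fewer cells of a type and less RNA per cell cannot be told apart.

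The genes whose fibroblast profile was most like that of Wisp2 were found over the 6 fibroblast group means of log2(CPM + 1), each gene centred on its own mean, among 10498 genes. They were Wdr86 (root mean square difference 0.0571), Mgat3 (0.105), Npr3 (0.113), Lrrc75b (0.113) and Gcnt1 (0.137). Npr3 encodes the natriuretic peptide clearance receptor, and Mgat3 and Gcnt1 encode glycosyltransferases. Frzb was the nearest of the other members compared, at 0.273 and rank 165, followed by Axin2 at 0.306 and rank 434. Genes below a mean of 5 CPM in fibroblast libraries, Wisp1 and Dkk2 among them, were not compared. Predicted and clone names were left out as well.

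**Figure D3:**
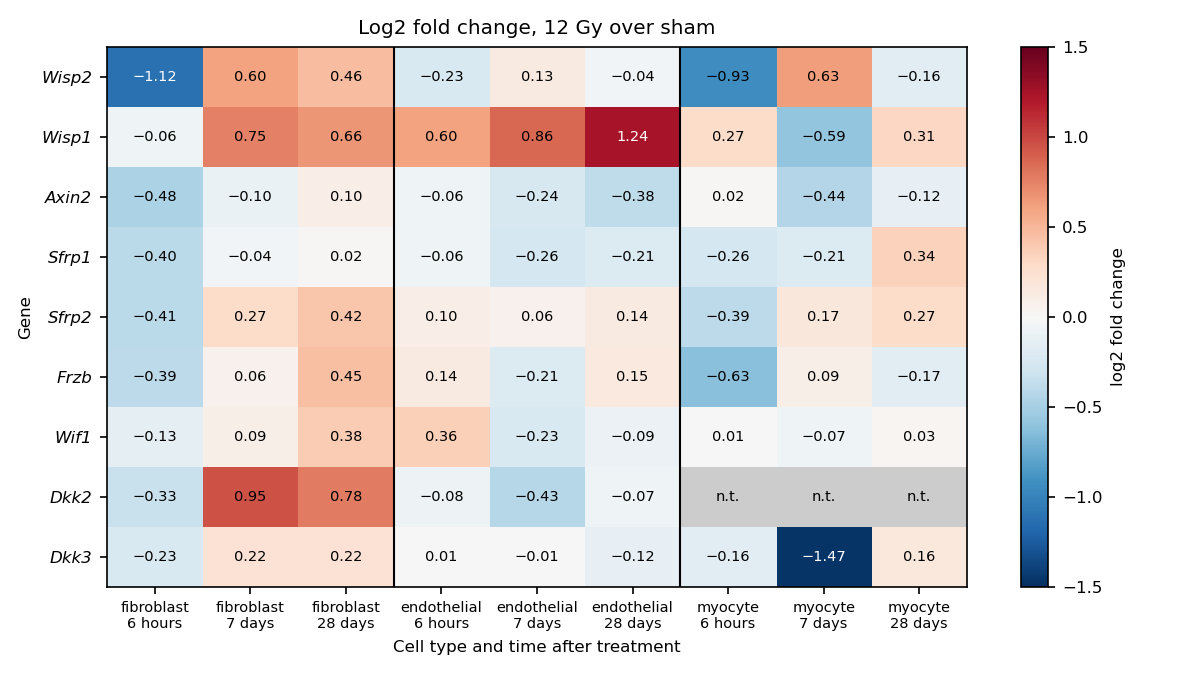
Fitted log2 fold change of 12 Gy over sham for each gene (rows) in each cell type and time (columns); blue is lower, red is higher, and n.t. marks Dkk2 in myocytes, which had too few reads to be fitted. Wisp2 in fibroblasts runs from −1.12 at 6 hours to 0.60 at 7 days, and Wisp1 in endothelial cells reaches 1.24 at 28 days.

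In endothelial libraries Wisp1 was the gene that stood furthest from sham, at a low level. Its sham libraries were at 0.671 and 0.819 CPM at 6 hours, 0.619 and 0.751 CPM at 7 days and 0.956 and 0.792 CPM at 28 days. The irradiated libraries were at 1.35 and 0.992 CPM, 1.36 and 1.14 CPM, and 1.63 and 2.47 CPM in the same order. Both irradiated libraries were above both sham libraries at each time, and the log2 fold changes were 0.60 ± 0.33, 0.86 ± 0.34 and 1.24 ± 0.31. Leaving out the higher irradiated library gave 0.389 at 6 hours and 0.897 at 28 days, and leaving out the lower gave 0.809 and 1.54.

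Dkk2, whose level is highest in this cell type, overlapped between the groups at 6 hours (−0.08 ± 0.15) and 28 days (−0.07 ± 0.16). At 7 days it was lower in irradiated endothelial libraries, with 15.97 and 12.56 CPM in sham against 10.8 and 10.55 CPM (−0.43 ± 0.15). Without the higher sham library the 7-day value was −0.232. Axin2 was lower at 28 days, with 6.09 and 5.61 CPM against 4.65 and 4.32 CPM (−0.38 ± 0.19), and overlapped at the earlier times. Sfrp1 was lower without overlap at 7 days (−0.26 ± 0.26) and 28 days (−0.21 ± 0.26), in each case by no more than its standard error, and the 28-day value was −0.036 without the second sham library.

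The remaining endothelial values were small. Wisp2 ran from −0.23 ± 0.27 at 6 hours to 0.13 ± 0.25 at 7 days, and Sfrp2, Frzb, Dkk3 and Wif1 stayed between −0.23 and 0.36. The fit would call 0 of the 9 genes at 6 hours and 7 days and 1 higher at 28 days, from which nothing is read. Over 14919 genes it called 6.10% higher and 5.23% lower at 6 hours, 0.925% and 0.891% at 7 days and 5.72% and 4.25% at 28 days. The fibroblast marker sum of these libraries was 2410 to 3017 CPM in sham and 3144 to 3411 CPM in irradiated libraries at 6 hours, 5417 to 5676 against 4073 to 4407 CPM at 7 days and 4353 to 6320 against 4140 to 4340 CPM at 28 days. Its part in the endothelial levels was not tested.

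**Figure D4:**
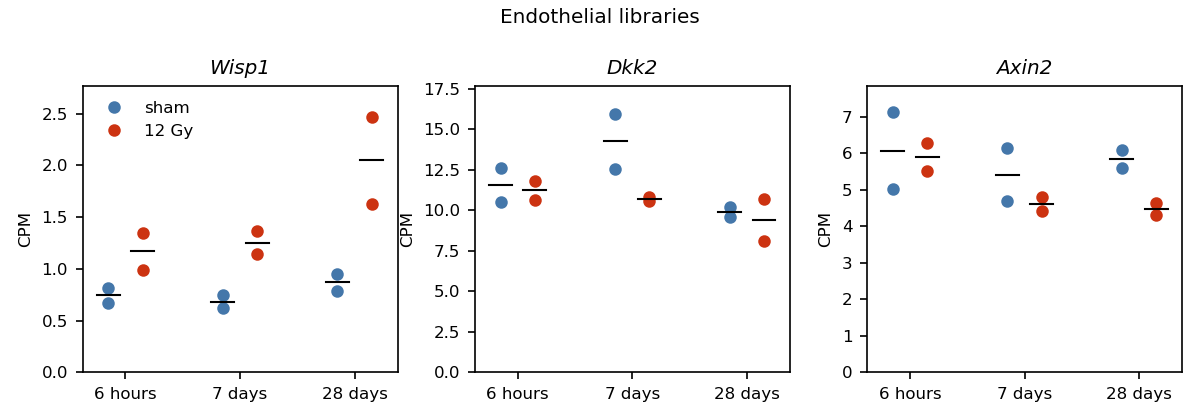
Level of Wisp1, Dkk2 and Axin2 in the 12 endothelial libraries (CPM, axes from 0) by time after treatment; points are libraries, blue for sham and red for 12 Gy, and bars are means of 2 libraries. Wisp1 is above sham at all 3 times, up to 1.63 and 2.47 CPM at 28 days.

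Myocyte libraries were the shallowest and the most variable, with a common biological coefficient of variation of 0.172 against 0.0677 in fibroblast and 0.0958 in endothelial libraries. Dkk3 showed the widest distance there: its 7-day sham libraries were at 130.1 and 184.3 CPM and its irradiated libraries at 59.09 and 45.25 CPM, without overlap (log2 fold change −1.47 ± 0.32). Without the first irradiated library of 7 days, the one that stands apart, the value was −1.82, and over all alternatives it lay between −1.822 and −1.152. The sham libraries of 28 days, at 87.1 and 48.47 CPM, reached down to the irradiated level of 7 days.

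Wisp2 in myocyte libraries was at 10.38 and 9.49 CPM in sham and 3.56 and 7.01 CPM in irradiated libraries at 6 hours (−0.93 ± 0.51). Leaving out the lower of the irradiated libraries moved this value to −0.547, and leaving out the higher moved it to −1.483. At 7 days (0.63 ± 0.51) and 28 days (−0.16 ± 0.52) the Wisp2 groups overlapped. Frzb was lower at 6 hours, with 11.31 and 9.41 CPM against 5.84 and 7.78 CPM (−0.63 ± 0.28). Wisp1 was lower at 7 days, with 3.85 and 4.33 CPM against 2.96 and 1.96 CPM (−0.59 ± 0.30), and higher by less than its standard error at 6 hours (0.27 ± 0.28) and 28 days (0.31 ± 0.32).

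Axin2 was lower at 7 days, with 5.001 and 4.75 CPM in sham against 2.31 and 4.56 CPM (−0.44 ± 0.27), where the library standing apart has the lower value. Without that library the 7-day values were −0.11 for Axin2 and −1.09 for Wisp1, and with it as the only irradiated library they were −0.847 and −0.249. Sfrp1, Sfrp2 and Wif1 in myocytes stayed between −0.39 and 0.34 at all 3 times.

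Dkk2 had at most 11 reads in any myocyte library and was not fitted. The fit would call none of the 8 members fitted in myocytes at any time, with 0.326%, 0.0638% and 0.0283% of 14115 genes called higher and 0.00%, 0.0213% and 0.00708% called lower at 6 hours, 7 days and 28 days. Leaving out the second irradiated library of 7 days, so that only the one standing apart was left, raised the calls among all genes at that time from 12 to 6723. Macrophage markers summed to 498 to 886.5 CPM in myocyte libraries, against at most 48.26 CPM in the other cell types.

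How the rest of the pathway behaved was asked with 90 further genes in 7 lists: Wnt ligands, Wnt secretion, other secreted modulators, other CCN genes, receptors and surface proteins, intracellular transducers, and feedback and target genes. These lists were chosen with earlier results of these data known. Their counts and medians are therefore descriptions beside those of all genes. In fibroblast libraries at 6 hours, 23 of the 75 genes tested fell and 6 rose (edgeR quasi-likelihood test, adjusted p under 0.05), beside the 12.3% of all genes called in each direction. The median log2 fold change of the 75 genes was −0.17, where that of all genes was −0.0021. All 6 genes named next with their adjusted p were called in every alternative run, each library left out included. Receptors and surface proteins gave the largest number, with 9 of 21 lower and 2 higher. Apcdd1, a membrane Wnt inhibitor, fell from 79.27 and 70.48 CPM to 37.17 and 41.73 CPM (−0.93 ± 0.08, adjusted p = 1.27e-06).

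Among the Frizzled receptors, Fzd2 fell from 72.1 and 74.13 CPM to 43.62 and 42.02 CPM (−0.78 ± 0.07, adjusted p = 2.61e-06) and Fzd7 from 104.7 and 113 CPM to 74.81 and 69.96 CPM (−0.59 ± 0.07, adjusted p = 1.83e-05). The pseudokinase co-receptor gene Ptk7 rose, from 77.54 and 70.79 CPM to 125.3 and 126.6 CPM (0.76 ± 0.08, adjusted p = 5.55e-06). Of 12 ligands, 3 rose and 2 fell. Wnt4 rose from 10.57 and 13.07 CPM to 27.37 and 33.08 CPM (1.35 ± 0.14, adjusted p = 5.98e-06), and Wnt5a, a ligand of the non-canonical branch, fell from 59.6 and 76.04 CPM to 40.02 and 40.12 CPM (−0.76 ± 0.10, adjusted p = 8.18e-05).

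Some members of the lists nearest to the 9 genes fell at 6 hours, and they are named here after their values were seen. All 3 other CCN genes that were tested fell, Ctgf by 0.55 ± 0.12 on the log2 scale (adjusted p = 0.00408), Nov by 0.53 ± 0.09 (adjusted p = 0.000524) and Cyr61 by 0.29 ± 0.09 (adjusted p = 0.0324). Of 8 other secreted modulators 2 fell, Sost by 1.79 ± 0.29 (adjusted p = 0.000478) and Sfrp4 by 0.83 ± 0.22 (adjusted p = 0.0138). Of 8 feedback and target genes 4 fell (Bambi, Ccnd1, Nkd2 and Znrf3, of which all but Bambi lost the call without the first sham library), and of 21 transducers 3 fell and 1 rose. Neither of the 2 secretion genes was called.

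The count of 29 rested partly on single libraries, though Nov, Sost and Bambi were called with any of them left out. It was lower with any library of 6 hours left out, and so were the calls over all genes. Ctgf was no longer called without the second irradiated library of 6 hours or without the first sham library, and Cyr61 likewise. Sfrp4 was no longer called without the second sham or the first irradiated library (adjusted p = 0.139 and 0.121).

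**Figure D5:**
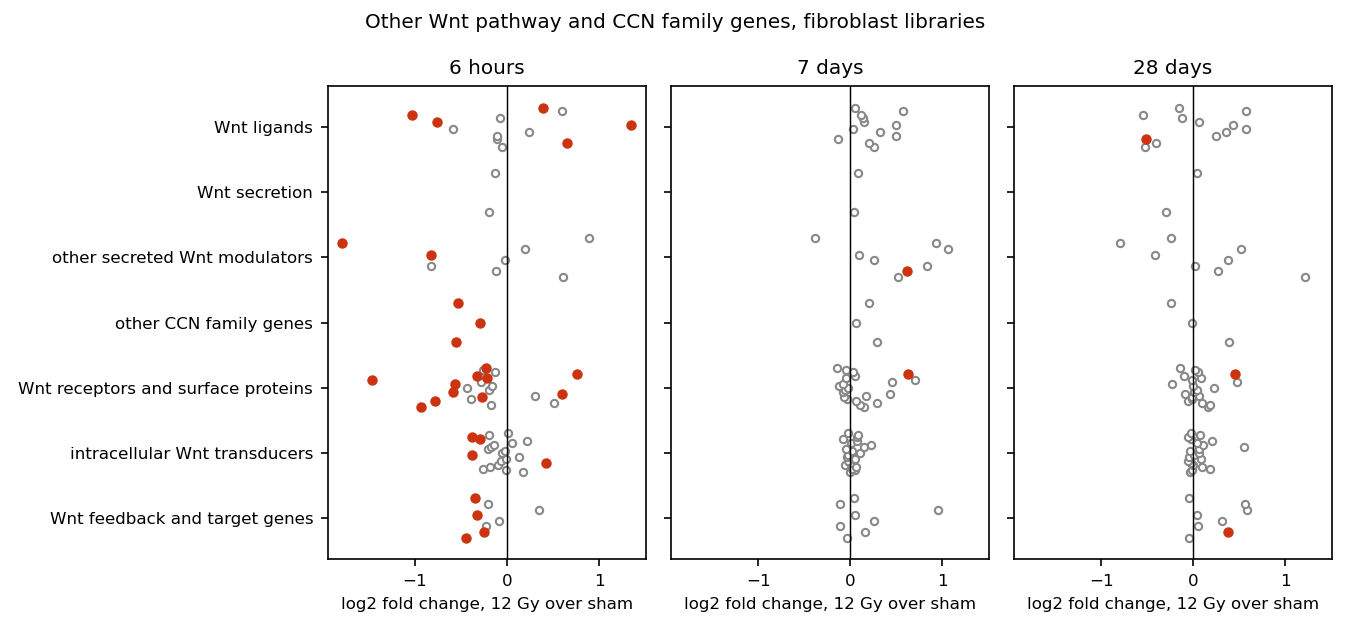
Log2 fold change of 12 Gy over sham for the other Wnt pathway and CCN family genes tested in fibroblast libraries, by list (rows) and time (panels); filled red points passed an adjusted p under 0.05 and open points did not. At 6 hours 23 genes are called lower and 6 higher, at 7 days 2 higher, and at 28 days 2 higher and 1 lower.

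At 7 days 2 of the 75 genes rose in fibroblasts, Ptk7 (0.63 ± 0.08, adjusted p = 0.000461) and Rspo1, a secreted Wnt enhancer (0.62 ± 0.14, adjusted p = 0.0420). Of all genes, 1.51% were called higher and 0.327% lower at that time. The call of Rspo1 was lost without the first sham library of 7 days (0.311, adjusted p = 0.138), without either irradiated one (adjusted p = 0.248 and 0.145), with DESeq2 (adjusted p = 0.0659) and with transcripts summed (adjusted p = 0.0646). At 28 days 2.48% of all genes were called higher and 0.813% lower. Ptk7 (0.45 ± 0.08, adjusted p = 0.0031) and the cyclin gene Ccnd1 (0.38 ± 0.07, adjusted p = 0.00814) rose at 28 days and the ligand Wnt11 fell (−0.51 ± 0.11, adjusted p = 0.0191). None of these 3 was called without the first sham library of 28 days (adjusted p = 0.0645, 0.0734 and 0.224), and 1 was called (Ptk7) when the second irradiated library of that time was left out.

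Whether the difference from sham changed between times was tested with an F-test. It called 14 of the 75 genes in fibroblasts, beside 9.89% of all genes. Apcdd1 had log2 fold changes of −0.93, 0.15 and 0.16 in order of time (adjusted p = 2.70e-05), Fzd2 of −0.78, 0.06 and −0.06 (adjusted p = 0.00016), Wnt5a of −0.76, 0.15 and 0.06 (adjusted p = 0.00123) and Fzd7 of −0.59, −0.08 and 0.01 (adjusted p = 0.00138). In these 4 genes, those with the smallest p, the values were far below 0 at 6 hours and within 0.16 of it later. Of the other genes called, Wnt4 (1.35), Wnt10b (0.65), Csnk1a1 (0.43) and Wnt9a (0.39) were above 0 at 6 hours. Sost, Ccnd1, Ctgf, Nov, Lgr6 and Lgr4 were below 0 at that time. The calls of Lgr4, Lgr6 and Wnt4 were lost with some single libraries left out.

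In endothelial libraries 6 genes were called higher and 3 lower of 74 at 6 hours, beside 6.10% of all genes higher and 5.23% lower. Ctnnbip1, an inhibitor of β-catenin, fell (−0.64 ± 0.10, adjusted p = 0.00166), as did the TCF gene Tcf7l1 (−0.44 ± 0.11, adjusted p = 0.0195). Ptk7 (0.81 ± 0.16, adjusted p = 0.00692), Fzd5 (0.70 ± 0.15, adjusted p = 0.00809), the kinase gene Csnk1a1 (0.35 ± 0.08, adjusted p = 0.0114) and the CCN gene Cyr61 (0.65 ± 0.15, adjusted p = 0.0138) rose. Leaving out the first sham library of 6 hours gave a count of 3, and leaving out its partner gave 5. Without the first, the calls of Tcf7l1 (adjusted p = 0.0595), Ptk7 (adjusted p = 0.0784), Fzd5 (adjusted p = 0.0809), Csnk1a1 (adjusted p = 0.0586) and Cyr61 (adjusted p = 0.129) were lost. Of the 6 genes named, only Ctnnbip1 was called with each of the 4 libraries left out.

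The endothelial fit called 0.925% of all genes higher and 0.891% lower at 7 days, and 5.72% and 4.25% at 28 days. Ccnd1 was the only one of the 74 genes called at 7 days, at 1079 and 1146 CPM against 585.7 and 526.7 CPM (0.99 ± 0.10, adjusted p = 6.96e-05). At 28 days it was at 1473 and 1582 CPM against 489.1 and 502 CPM (1.62 ± 0.10, adjusted p = 1.11e-06). Ptk7 also rose at 28 days (0.93 ± 0.17, adjusted p = 0.00376) and Ctnnb1, which encodes β-catenin, fell (−0.32 ± 0.09, adjusted p = 0.0465). The call of Ctnnb1 ended with any of the 4 libraries left out (adjusted p between 0.0747 and 0.262), with RLE size factors (adjusted p = 0.0501) and with the replicate block (adjusted p = 0.0684), and that of Ptk7 without the second sham library (adjusted p = 0.0613). The 28-day count of 3 was 1 without that sham library and 6 without the first irradiated one. The F-test called 1 of the 74 genes, Ccnd1 (log2 fold changes −0.06, 0.99 and 1.62, adjusted p = 3.64e-05), beside 6.26% of all genes. It called 3 without the second sham library of 6 hours, 4 without the first irradiated library of 6 hours and 2 without the first irradiated library of 28 days.

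In myocyte libraries edgeR called 0 of the 66 pathway genes tested at each of the 3 times and 0 in the F-test, which called 0.00% of all genes. At an unadjusted p under 0.05 there were 4, 13 and 2 genes at 6 hours, 7 days and 28 days and 5 in the F-test, and DESeq2 called 1 gene in each of the 4. Without the second irradiated library of 7 days, which leaves the library standing apart as the only one of its group, 30 genes were called at 7 days and 27 in the F-test.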

How the data were processed

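The data are read counts of 36 libraries. Per the labels' protocols, an RNeasy kit gave the RNA and a SMARTer mRNA-seq kit the libraries. Per the submitters' processing notes the build was GRCm38 (mm10), and aligner and counter count as not given in the sources used here. Deposited files give the authors' whole-number counts per RefSeq transcript (33068 transcripts, 24061 gene names). A second deposited column, called TPM per the file headers, holds RPKM values: it equalled the counts divided by transcript length and library total. Another 30 read columns in these files belong to other libraries and were not used.

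For each gene name the transcript with the most reads stood for the gene. CPM were computed from these counts and their sum in each library, and RPKM are the deposited values, whose total runs over all transcripts. The 12 libraries of a cell type were fitted with edgeR 4.0.16 (R 4.3.3): TMM scaling, filterByExpr (minimum count 10, minimum total 15), group means, glmQLFit and glmQLFTest. Irradiated minus sham was fitted at each time (9 comparisons), with an F-test between times (3 tests). The 18 sham libraries were fitted together to compare cell types as means over the 3 times. p-values were adjusted by Benjamini and Hochberg over all genes of a fit, with a threshold of 0.05. SE was derived from the test of each contrast, as the size of the log2 fold change over the square root of the quasi-likelihood F. Counting error limits genes of few reads.

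The members, the pathway lists and the marker lists were chosen with earlier results of these data known. Named were all 9 members, up to 6 called pathway genes per comparison and 4 per F-test by smallest p, 5 genes most like Wisp2 (mean of at least 5 CPM, pseudocount 1), Cdkn1a and 6 defining markers. RLE size factors were tried, besides no filter beyond 1 read, transcripts summed, DESeq2 1.42.0, the replicate number as a block and each library left out in turn. Plain library totals were added after seeing the data. Simulated data with known changes were used to test the scripts. Replicate numbers did not pair the libraries: deviations of same-numbered libraries correlated between −0.158 and 0.161 over 15 pairs of groups per cell type. Replicates of a group differed by more than sampling noise (chi-square of at least 5.14 per degree of freedom), so each was counted. Sequences are RefSeq promoters of build GRCm38.p6.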

Additional observations from a re-analysis of the deposited data

Results flagged for a closer look

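In the 6 sham fibroblast libraries, 1 value lay far from the other 5 for Dkk2 (gap to the nearest library over the whole range 0.701) and for Dkk3 (0.662), both above the critical value of Dixon's test. The Dkk2 value is the second sham library of 6 hours, at 0.695 CPM, and the Dkk3 value is the second sham library of 7 days, at 297.4 CPM. Among the 27 gene and cell type pairs examined, chance alone flags about 1 in 20, and pairs of a cell type share their libraries. That second sham library of 7 days was also the lowest sham fibroblast library for Wif1 (72.59 CPM), Frzb (141.3 CPM) and Dkk2 (0.349 CPM). It was not the lowest for Wisp1, Wisp2, Sfrp1, Sfrp2 and Axin2.

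For several members both irradiated libraries lay on one side of both sham libraries in one group of samples and on the other side in another. These differences were not tested, because the contrasts chose the members. With 2 libraries in each group such separation also arises often by chance, and its share over all genes was not counted. Some of these changes were smaller than their standard error. They were those of Wisp1 in myocytes at 6 hours (0.27 ± 0.28) and 28 days (0.31 ± 0.32) and of Axin2 in fibroblasts at 28 days (0.10 ± 0.12). In fibroblasts, the log2 fold change at 6 hours minus that at 7 days was −1.72 for Wisp2 and −0.68 for Sfrp2. At 6 hours minus 28 days it was −1.58 for Wisp2, −0.83 for Sfrp2, −0.84 for Frzb, −0.45 for Dkk3 and −0.58 for Axin2.

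The log2 fold change of Wisp1 at 7 days was 1.34 higher in fibroblasts and 1.45 higher in endothelial cells than in myocytes. Within myocytes its log2 fold change at 6 hours exceeded that at 7 days by 0.86, and that at 7 days minus that at 28 days was −0.90. The library that stands apart is 1 of the 2 irradiated myocyte libraries of 7 days. At 28 days Axin2 was 0.48 higher in fibroblasts than in endothelial cells, as a difference of log2 fold changes.

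In the F-test of edgeR between times, the pathway genes that differed most in fibroblasts were Apcdd1 (adjusted p = 2.70e-05), Fzd2 (adjusted p = 0.00016), Wnt5a (adjusted p = 0.00123) and Fzd7 (adjusted p = 0.00138), each lower at 6 hours. In endothelial cells it was Ccnd1 (adjusted p = 3.64e-05), higher at 7 and 28 days. Its myocyte log2 fold changes were −0.32, 1.15 and 1.10 in order of time. The same F-test did not call Ccnd1 in myocytes (adjusted p = 0.781).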

How the results depend on the processing

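The member calls between sham cell types kept counts of 9, 8 and 8 within 1 gene in the alternatives run (9 to 9, 8 to 9 and 7 to 8 with each library left out). Axin2 between sham myocyte and endothelial libraries, which was not called, ran from −0.135 to 0.016 with each library left out, and turned to 0.016 and 0.003 without the second sham endothelial library of 6 hours and of 7 days. Of the 78 irradiated and sham values of members, 36 changed sign in some alternative, none of them above 0.63 in size.

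Without the low-count filter, pathway counts moved in fibroblasts to 5 at 7 days, 10 at 28 days and 22 in the F-test, in endothelial cells to 6, 7 and 12, and in myocytes to 5, 1 and 1. DESeq2 called 1 in fibroblasts at 7 days, 2 in endothelial cells at 7 days and 5 in their F-test, and 1 in each myocyte comparison. Summed transcripts gave 1 in fibroblasts at 7 days, and plain library totals gave 2 in the endothelial F-test. The causes were not tested.

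With each library left out the counts ran in fibroblasts from 19 to 26, 1 to 2 and 0 to 2 in order of time and from 11 to 16 in the F-test. In endothelial cells they ran from 3 to 7, stayed at 1, and ran from 1 to 6, with 1 to 4 in the F-test. In myocytes they were 0 at 6 hours and 28 days, 0 to 30 at 7 days and 0 to 27 in the F-test, the upper values without the second irradiated library of 7 days.

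Within a cell type, replicate numbers did not pair the libraries. The replicate block gave 32, 2, 3 and 17 pathway genes in fibroblasts (29, 2, 3 and 14 without it), 7, 1, 2 and 1 in endothelial cells (9, 1, 3 and 1) and 0 in myocytes. Over all genes it called 432 rather than 276 in fibroblasts at 7 days, and 6 rather than 12 and 2 rather than 5 in myocytes at 7 and 28 days.

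Calls over all genes, which serve as background, moved by more than 1.5 times under these settings. Without the filter they were 843, 929 and 2456 (fibroblasts at 7 and 28 days and F-test), 674, 2424 and 2161 (endothelial cells) and 111, 600, 90 and 129 (myocytes). DESeq2 gave 1454 in the endothelial F-test and 79, 66, 39 and 26 in myocytes, and library totals gave 3 in myocytes at 28 days. With each library left out, calls in fibroblasts ran from 2198 to 3007, 101 to 435 and 229 to 416 in order of time and from 901 to 1634 in the F-test (3693, 276, 494 and 1483 with all libraries). In endothelial cells they ran from 826 to 1553, 155 to 212, 443 to 2317 and 441 to 1504 (1690, 271, 1487 and 934), and in myocytes from 11 to 21, 1 to 6723, 0 to 2 and 0 to 4513 (46, 12, 5 and 0). Genes with few reads (Dkk2 in fibroblasts and myocytes, Wisp1 in every cell type) are limited by depth.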
